A study of Rattus norvegicus with 12 samples.

Results

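The 6 genes of heme synthesis and iron handling, Alas2, Fech, Slc25a37, Iscu, Blvrb and Slc40a1, were described in rat whole blood. They form a set chosen for its role in heme and iron metabolism, with earlier results of these data known. The genes were taken by symbol, and all 6 were found among the 17337 genes of the deposited tables. Blood RNA came from adult male rats of 2 inbred strains, Fischer 344 (F344) and Wistar Kyoto (WKY), aged 70 to 90 days, with 3 libraries in each of 4 groups: each strain was either left without stress or given chronic restraint stress (CRS). Restraint meant 2 hours a day in a decapicone bag for 2 weeks, while unstressed rats stayed undisturbed. Every rat, the unstressed ones included, had been fear conditioned 4 weeks before the restraint period and was tested so again after it. Blood was taken at death, 24 hours after the second day of that last test. The comparisons ask how restraint and strain relate to blood transcripts. The labels do not say that each library is a different rat, so the tests measure the spread between libraries.

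Heme is built in developing red cells by an enzyme chain that starts with Alas2, the erythroid 5-aminolevulinate synthase, and ends with Fech, ferrochelatase, which inserts iron into protoporphyrin. Slc25a37, mitoferrin-1, carries iron into the mitochondria of red cell precursors, and Iscu is the scaffold on which iron-sulfur clusters are assembled there. Blvrb, biliverdin reductase B, acts on products of heme breakdown and as a flavin reductase in red cells, and Slc40a1, ferroportin, is the cellular iron exporter. Circulating reticulocytes still hold the RNA of such genes, so whole blood reports on them without purification. In whole blood, fewer cells of a type and less RNA per cell cannot be told apart.

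RefSeq promoter windows (build GRCr8) matched 5 of the 6 genes, and none was matched for Slc25a37. The 250 bases before the listed transcript start are given for the 2 heme synthesis enzymes, for Slc40a1, the gene that passed the test between strains, and for Iscu, the gene with the largest difference after restraint. Capitals mark AGATAA, a sequence bound by erythroid GATA factors, or GGGCGG, the GC box, on either strand. The Alas2 start in that table lies inside the annotated span of the gene, so other Alas2 starts exist.
Alas2 (chrX:22895200-22895449, plus strand): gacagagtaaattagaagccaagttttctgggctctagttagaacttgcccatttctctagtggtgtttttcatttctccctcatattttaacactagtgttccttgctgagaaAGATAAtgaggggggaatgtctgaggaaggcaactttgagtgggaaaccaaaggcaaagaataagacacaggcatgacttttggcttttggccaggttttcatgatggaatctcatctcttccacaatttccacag
Fech (chr18:60248526-60248775, minus strand): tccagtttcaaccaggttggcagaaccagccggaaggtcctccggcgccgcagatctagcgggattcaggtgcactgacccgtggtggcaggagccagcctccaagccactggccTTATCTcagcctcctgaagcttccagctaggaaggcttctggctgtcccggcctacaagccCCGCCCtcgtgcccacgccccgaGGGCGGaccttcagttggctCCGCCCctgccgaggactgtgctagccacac
Slc40a1 (chr9:55543461-55543710, minus strand): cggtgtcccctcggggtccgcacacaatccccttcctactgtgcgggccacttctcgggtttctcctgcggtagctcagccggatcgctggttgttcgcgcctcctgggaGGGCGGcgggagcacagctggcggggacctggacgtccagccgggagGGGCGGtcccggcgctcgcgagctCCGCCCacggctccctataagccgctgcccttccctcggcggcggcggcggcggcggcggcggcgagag
Iscu (chr12:48518697-48518946, minus strand): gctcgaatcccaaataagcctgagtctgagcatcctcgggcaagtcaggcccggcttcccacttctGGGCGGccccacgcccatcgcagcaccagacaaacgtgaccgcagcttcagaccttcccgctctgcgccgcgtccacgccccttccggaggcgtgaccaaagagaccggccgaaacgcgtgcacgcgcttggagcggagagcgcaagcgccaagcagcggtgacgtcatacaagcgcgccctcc
AGATAA began at -136 in the Alas2 window and at -135 on the other strand in the Fech window, counted from the transcript start. It was not in the windows of Slc40a1, Iscu or Blvrb, and 10.3% of 33469 rat promoter windows of that length held it. GGGCGG was found 3 times in Fech, 3 times in Slc40a1, once in Iscu, 5 times in Blvrb and not in Alas2, against 30.5% of all windows with at least 1 match. The overlapping pattern CCNCNCCC, bound by Krüppel-like factors, matched 4 times in Blvrb, 2 times in Fech and in Iscu, once in Slc40a1 and not in Alas2, and 42.8% of all windows held it. No match in the 5 windows was found for TGATAA (held by 7.97% of all windows), TGACTCA (4.05%), TGACNNNGC (10.1%), CACGTG (5.59%) or TATAAA (12.9%). The Alas2 window was 41.6% G or C, against 65.2% for Fech, 74.0% for Slc40a1, 66.0% for Iscu and 60.4% for Blvrb, with a median of 51.2% over all windows. These matches describe letters only.

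Genes received 1691956 to 3846263 counts per library, of which 88.9% to 94.6% fell on 3 features, and 90796 to 419789 counts were left for all other genes. Those features were LOC310926, Rn5-8s and LOC257642, none of them in the globin list used below. Levels are CPM, counts brought to a common library size, scaled by TMM, edgeR's trimmed mean scaling, whose factors ran from 0.519 to 1.53. A single count was then worth 0.202 to 1.14 CPM, most in unstressed F344 replicate 3. The 6 genes together had 933 to 4524 counts in a library, and all 6 passed the low count filter. Unstressed F344 replicates 2 and 3 stood apart, with the 2 lowest factors (0.626 and 0.519), and results that turn on them are given with and without them. The blood label was checked against markers. All 22 red cell genes in the tables had counts, as did members of the platelet, neutrophil, monocyte, T cell and B cell lists. Ten-gene sums are not comparable in list size, but 10 genes of brain, muscle, liver and skin summed to 6.19 to 15.8 CPM. The red cell list summed to 497 to 1180 CPM, while the B cell list, at 11.4 to 23.7 CPM, overlapped the range of those other tissues. Levels are compared between libraries and not between genes, since transcript lengths of the annotation counted were not given in the sources used here.

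**Figure D1:**
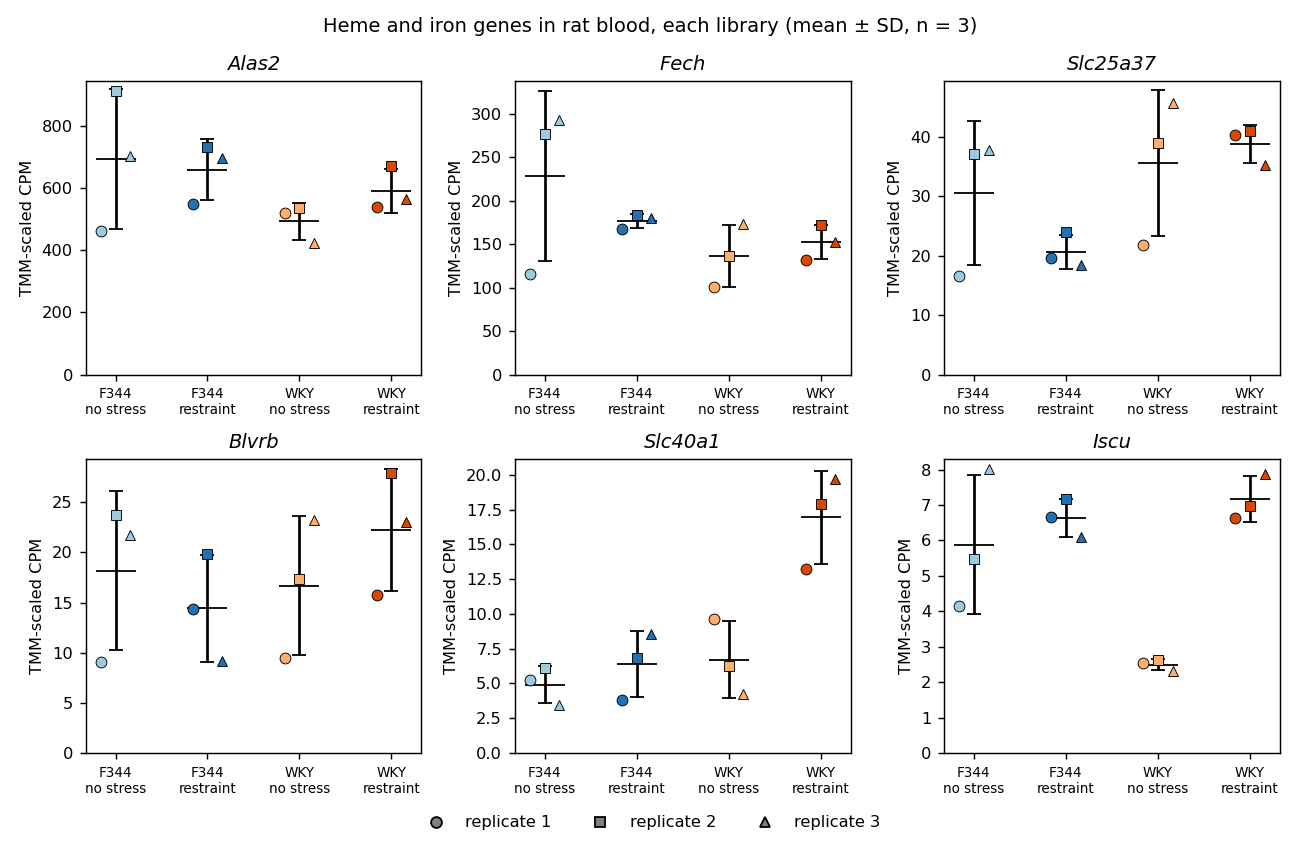
TMM-scaled CPM (vertical axes, from 0) of the 6 genes in each of the 12 libraries, by strain and treatment. Symbols mark replicate 1 (circle), 2 (square) and 3 (triangle), horizontal bars the mean and whiskers the SD of 3 libraries. Slc40a1 lies at 13.2 to 19.7 CPM in WKY after restraint and at 3.43 to 9.67 CPM elsewhere, and Iscu lies at 2.32 to 2.62 CPM in unstressed WKY and at 4.14 to 8.01 CPM elsewhere.

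Alas2, which sets the rate of heme synthesis in red cell precursors, stood at 461, 912 and 703 CPM in unstressed F344 replicates 1, 2 and 3, and at 547, 733 and 696 CPM after CRS. In WKY the values were 519, 534 and 422 CPM without stress and 538, 669 and 563 CPM after CRS. The WKY groups did not overlap, but by only 534 against 538 CPM, and the F344 groups did. The group means were ordered as unstressed F344 (692 ± 226 CPM, SD, n = 3), stressed F344 (658 ± 98.3), stressed WKY (590 ± 70.0) and unstressed WKY (492 ± 60.8), and of neighbours in that order the last pair alone did not overlap. In edgeR's quasi-likelihood test Alas2 differed after CRS by log2 -0.07 in F344 (95% interval -0.69 to 0.55, adjusted p = 1.00) and by log2 0.26 in WKY (-0.36 to 0.88, adjusted p = 0.975). The WKY value became log2 -0.09 with scaling to the counts outside the 3 most abundant features. Between strains Alas2 differed by log2 -0.49 without stress (-1.11 to 0.13, adjusted p = 0.669) and by log2 -0.16 after CRS (-0.77 to 0.46, adjusted p = 0.909).

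Globin RNA, whose protein carries the heme made by this chain, was summed over the 8 listed genes found in the tables. The sum was 20472 to 34841 CPM in unstressed F344, 25298 to 41774 in stressed F344, 20150 to 26105 in unstressed WKY and 34958 to 37711 in stressed WKY. In these TMM-scaled values restraint and no stress were apart in WKY and overlapped in F344. The same held for Alas2, but there the WKY groups were apart by only 534 against 538 CPM. Red cell membrane and erythroid factor genes summed to 699 to 854 CPM in unstressed WKY and 692 to 1180 CPM in stressed WKY, with overlap, and to 497 to 1103 and 658 to 778 CPM in F344. The part of either list in the Alas2 values was not tested.

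Fech stood at 116, 277 and 293 CPM in unstressed F344 and at 167, 183 and 180 CPM after CRS. In WKY it stood at 101, 136 and 173 CPM without stress and at 132, 172 and 153 CPM after CRS. In TMM-scaled CPM unstressed F344 replicates 2 and 3 were thus the 2 highest of the 12 libraries, while replicate 1 of the same group was the second lowest. The TMM factors of replicates 1, 2 and 3 were 1.50, 0.626 and 0.519, and the part of scaling in this order was not tested. Relative to counts of the red cell list, all unstressed F344 libraries lay above all unstressed WKY libraries. That difference did not pass either (log2 -0.59, edgeR adjusted p = 0.889). The group means fell in the order 229 ± 98.0 CPM (unstressed F344), 177 ± 8.46 (stressed F344), 152 ± 19.7 (stressed WKY) and 137 ± 36.1 (unstressed WKY), and every pair of neighbours overlapped. Without stress the strain difference was log2 -0.74 (95% interval -1.37 to -0.10, edgeR adjusted p = 0.407), which did not pass. It passed without unstressed F344 replicate 1 (log2 -1.05, adjusted p = 0.0377), as did the mean over treatments (log2 -0.63, adjusted p = 0.0391 against log2 -0.48 and 0.293 with it). The difference without stress was log2 0.28 without replicates 2 and 3, the other 2 libraries of that group. After CRS it was log2 -0.22 (-0.85 to 0.41, adjusted p = 0.867), and restraint gave log2 -0.36 in F344 and 0.16 in WKY (adjusted p = 0.996 and 0.975).

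Slc25a37 had 16.5, 37.2 and 37.7 CPM in unstressed F344 and 19.6, 23.9 and 18.5 CPM after CRS. In WKY it had 21.9, 39.0 and 45.7 CPM without stress and 40.2, 41.0 and 35.2 CPM after CRS. All 3 stressed WKY libraries lay above all 3 stressed F344 libraries, at means of 38.8 ± 3.18 and 20.6 ± 2.87 CPM (SD, n = 3), and no other pair of groups compared was apart. That difference, log2 0.91 (95% interval 0.28 to 1.55, edgeR adjusted p = 0.187), did not pass, and over the alternatives its adjusted p ran from 0.0517 to 0.686. Averaged over treatments WKY was at log2 0.59 above F344 (0.13 to 1.05, adjusted p = 0.162). Without unstressed F344 replicates 2 and 3 this became log2 1.02 and passed (adjusted p = 0.0368), with replicate 1 as the lone library of its group, assumed to vary like the others. Restraint gave log2 -0.51 in F344 (-1.18 to 0.16, adjusted p = 0.962) and 0.14 in WKY (-0.49 to 0.77, adjusted p = 0.975).

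Iscu, the iron-sulfur scaffold, was counted 15, 9 and 7 times in unstressed F344, 33, 21 and 30 times in stressed F344, 11, 8 and 6 times in unstressed WKY and 26, 16 and 24 times in stressed WKY. In CPM these were 4.14, 5.48 and 8.01, then 6.66, 7.17 and 6.09, then 2.53, 2.62 and 2.32, and lastly 6.62, 6.98 and 7.89. Unstressed WKY was the only low group: its highest library lay below the lowest of every other group, and the other 3 groups overlapped. The mean was 2.49 ± 0.154 CPM in unstressed WKY and 7.16 ± 0.651 CPM after CRS, a difference of log2 1.50 (2.83-fold, 95% interval 0.72 to 2.28). This was the largest restraint difference among the 6 genes in either strain, with an edgeR unadjusted p of 0.000406, but it did not pass adjusted over all genes (0.376, and from 0.225 to 1.00 over the alternatives). Its log2 value stayed between 1.18 and 1.56 over all 21 alternatives. In F344 the means were 5.88 ± 1.97 and 6.64 ± 0.541 CPM (log2 0.31, -0.46 to 1.07, adjusted p = 0.996).

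Averaged over strains, Iscu stood at log2 0.90 after CRS (SE 0.269, edgeR adjusted p = 0.495), and its response differed between strains by log2 1.19 (0.09 to 2.30, adjusted p = 0.993). Without stress WKY stood at log2 -1.08 against F344 (-1.96 to -0.21, adjusted p = 0.349), and after CRS at log2 0.11 (-0.56 to 0.79, adjusted p = 0.938). None of these passed. The unstressed groups rest on few Iscu counts, 25 over 3 libraries in WKY and 31 in F344. The globin sum above also lay apart between the WKY groups, and its part in the Iscu values was not tested.

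Blvrb, the reductase, spread widely in every group. It stood at 9.10, 23.8 and 21.7 CPM in unstressed F344, 14.3, 19.8 and 9.13 CPM in stressed F344, 9.44, 17.4 and 23.2 CPM in unstressed WKY and 15.8, 27.9 and 23.0 CPM in stressed WKY. All 4 groups overlapped in all 4 comparisons of 2 groups. The largest difference was that between strains after CRS, log2 0.63 (95% interval -0.09 to 1.35, edgeR adjusted p = 0.535), which did not pass. Restraint gave log2 -0.27 in F344 (adjusted p = 1.00) and 0.42 in WKY (adjusted p = 0.975), and the strains differed by log2 -0.06 without stress (adjusted p = 0.974).

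Slc40a1, the iron exporter, was the only one of the 6 genes to pass the test in any comparison. It was counted 19, 10 and 3 times in unstressed F344, 19, 20 and 42 times in stressed F344, 42, 19 and 11 times in unstressed WKY and 52, 41 and 60 times in stressed WKY. The levels were 5.24, 6.09 and 3.43 CPM, then 3.84, 6.83 and 8.52 CPM, then 9.67, 6.23 and 4.26 CPM, and 13.2, 17.9 and 19.7 CPM in stressed WKY. Stressed WKY stood above all other libraries, and the other 3 groups overlapped. After CRS the level in WKY was 16.9 ± 3.33 CPM against 6.40 ± 2.37 CPM in F344 (SD, n = 3), 2.64-fold higher (log2 1.40, SE 0.344, edgeR adjusted p = 0.0211). Averaged over treatments WKY was higher by log2 0.91 (SE 0.269, edgeR adjusted p = 0.0479).

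The Slc40a1 difference after CRS kept its direction in all 21 alternatives, at log2 1.12 to 1.71, and passed in 14. The call ended without stressed F344 replicate 1 (edgeR adjusted p = 0.263) or 2 (0.103), without stressed WKY replicate 2 (0.0663) or 3 (0.0904), with no low count filter (0.109), with scaling to counts outside the 3 most abundant features (0.180) and with scaling to the red cell list (0.458). The mean over treatments passed in 6 of 20 alternatives, with adjusted p from 0.0243 to 0.369. Of the 12 fits that left out 1 library it passed only in 3, those lacking replicate 3 of stressed F344, replicate 1 of stressed WKY or replicate 3 of WKY without stress, and leaving out any other library ended the call (edgeR adjusted p up to 0.214). Without stress the strains differed by log2 0.42 (95% interval -0.42 to 1.27, adjusted p = 0.839). Restraint in WKY gave log2 1.28 (0.58 to 1.98, unadjusted p = 0.000744, adjusted p = 0.517) with no overlap of the groups, against log2 0.30 in F344 (-0.53 to 1.14, adjusted p = 1.00). The difference between these responses was log2 0.98 (-0.13 to 2.08, adjusted p = 0.993), so a different response of the strains was not shown.

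**Figure D2:**
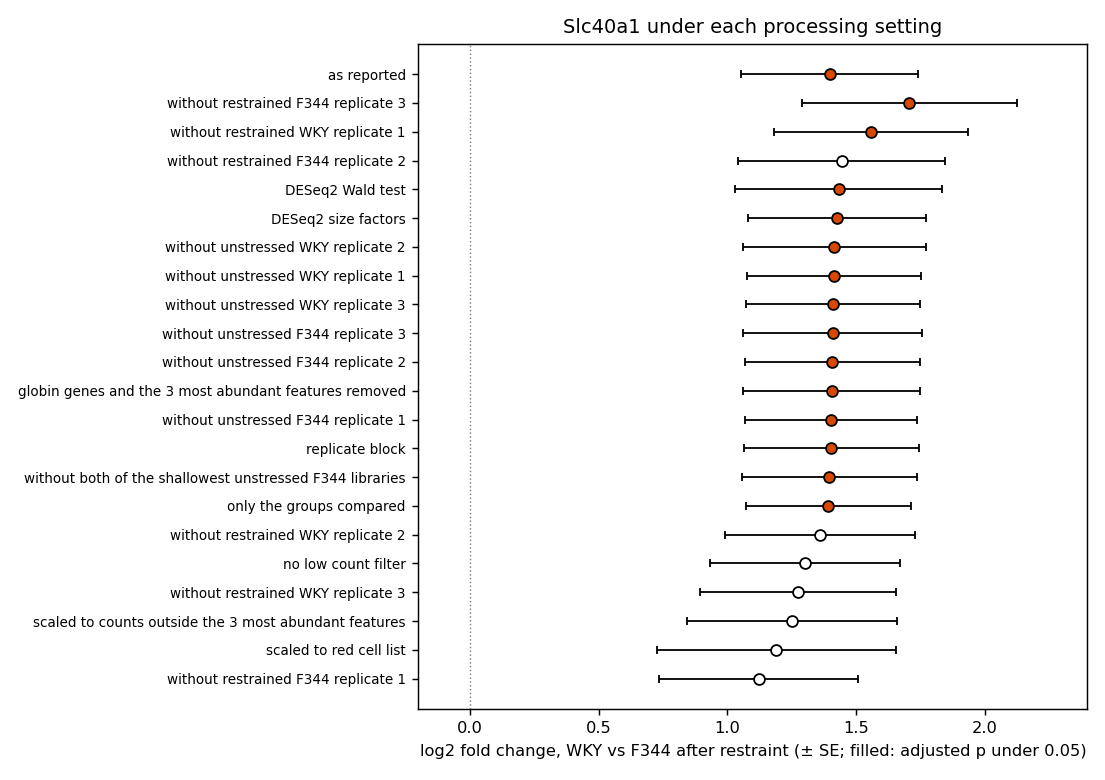
Log2 fold change of Slc40a1 in WKY against F344 after restraint (horizontal axis, ± SE) as reported (top) and under each of 21 other settings (vertical axis), sorted by value below it. Filled points passed an adjusted p of 0.05. All values lie between 1.12 and 1.71, and 14 of the 21 other settings passed.

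Slc40a1 is also expressed by macrophages, so markers of other blood cells are given beside it. Monocyte and macrophage markers, all 12 of them in the tables, summed to 79.2 to 86.7 CPM in stressed F344 and 123 to 169 CPM in stressed WKY, and to 58.3 to 71.1 and 121 to 134 CPM in the unstressed groups. Only 4 of these 12 passed the low count filter, and 1 of them, Spic, a factor of iron-recycling macrophages, had no counts in any library. At this depth a lack of counts for a single gene does not show that such cells were absent. Platelet markers, 9 of 12 listed being in the tables and Gp1bb at 0, summed to 61.7 to 73.4 CPM in stressed F344 and 75.7 to 128 CPM in stressed WKY. Without stress they summed to 33.2 to 46.6 CPM in F344 and 37.9 to 85.4 CPM in WKY. Both lists were therefore higher without overlap in stressed WKY than in stressed F344, as Slc40a1 was. B cell markers went the other way without overlap, at 21.0 to 23.7 CPM in stressed F344 and 15.3 to 18.3 CPM in stressed WKY. Neutrophil markers (34.3 to 50.9 and 42.7 to 52.6 CPM) and T cell markers (35.5 to 45.4 and 25.7 to 37.4 CPM) overlapped between these groups. The part of any list in the Slc40a1 difference was not tested.

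**Figure D3:**
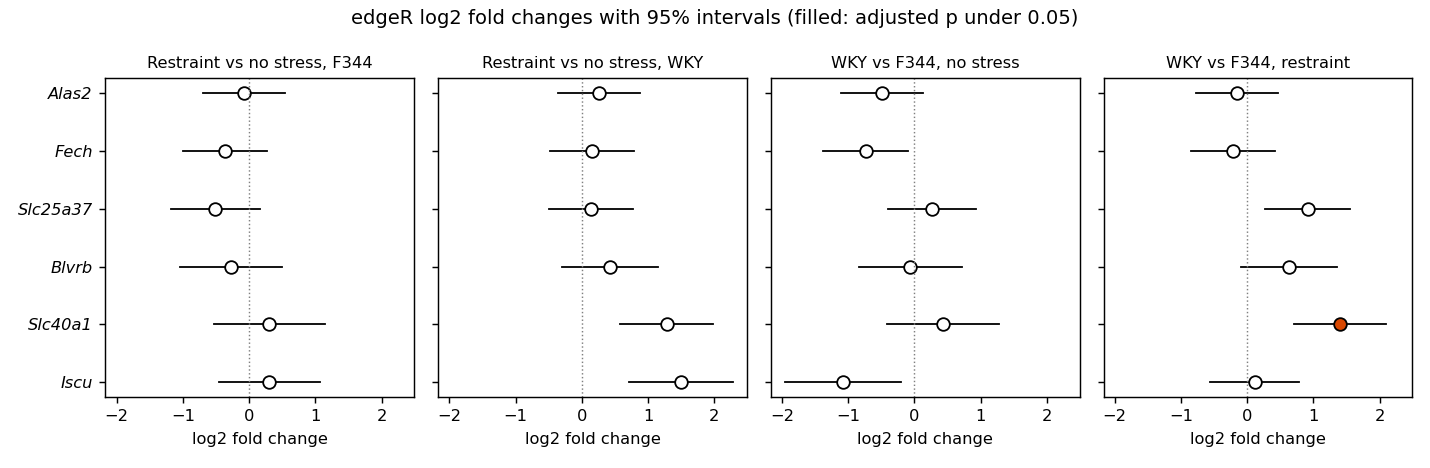
Log2 fold changes (horizontal axes) of the 6 genes with 95% intervals in the 4 comparisons of 2 groups, from 1 fit of all 12 libraries. The filled point, Slc40a1 in WKY against F344 after restraint at log2 1.40, is the only one with an adjusted p under 0.05. For Iscu and Slc40a1 in the restraint comparison of WKY the intervals lie above 0, but neither passed adjusted over all genes.

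Restraint in F344 was called for 0 of the 6 genes, where edgeR called 0% of 2781 genes tested (130 with an unadjusted p under 0.05, none of the 6 among them) and DESeq2 called 0. The 6 genes had a median log2 fold change of -0.17, with 2 positive and 4 negative, against 0.01 over all genes. Without unstressed F344 replicates 2 and 3 the negative values of Slc25a37, Blvrb, Alas2 and Fech became log2 0.38, 0.71, 0.58 and 0.68. That setting leaves 1 library in the unstressed F344 group. With all 12 libraries and no low count filter, Blvrb, Alas2 and Fech also turned positive (log2 0.12, 0.35 and 0.09). Slc25a37 stayed negative there (log2 -0.10). The direction in F344 thus depended on the libraries kept and, for Blvrb, Alas2 and Fech, also on the processing. Restraint in WKY was also called for 0 of 6 by edgeR, against 0% of all genes (161 with an unadjusted p under 0.05, Iscu and Slc40a1 among them), and DESeq2 called 0. All 6 values were positive there, with a median of log2 0.34 against 0.02 over all genes, and Alas2, Slc40a1 and Iscu were higher without overlap, as were 4.93% of all genes. With scaling to the counts outside the 3 most abundant features, Slc25a37, Alas2 and Fech turned negative in WKY (log2 -0.23, -0.09 and -0.23).

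Averaged over strains, restraint was called for 0 of 6 genes, with 4 values positive, by edgeR and by DESeq2, where edgeR called 0.036% of all genes and 2 of the 6, Iscu and Slc40a1, had an unadjusted p under 0.05. Between strains without stress 0 of 6 were called by either tool, against 0.683% of all genes in edgeR, with Fech and Iscu at an unadjusted p under 0.05. The members' median there was log2 -0.28, and Iscu was lower in WKY without overlap, as were 6.33% of all genes. After CRS 1 of 6 was called, against 1.29% of all genes, the median was log2 0.37, and Slc25a37 and Slc40a1 were higher without overlap, as were 9.64% of all genes. The mean over treatments had 1 of 6 called against 3.74% of all genes. The strain difference in the response to restraint was called for 0 of 6, against 0% of all genes in edgeR (106 with an unadjusted p under 0.05, Iscu alone among the 6) and 0 in DESeq2. These comparisons share libraries, so their values for a gene are not independent.

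Some of the 6 genes varied together from library to library, and 15 pairs were compared over the 12 libraries on log2 CPM. Slc25a37 and Blvrb gave Pearson's r = 0.83 (permutation p = 0.00161, adjusted 0.0241) and Spearman's rho = 0.76 (permutation p = 0.00635, adjusted 0.0476), and r = 0.67 without the 2 libraries farthest from the median of Slc25a37. The 4 libraries lowest in Slc25a37, at 16.5 to 21.9 CPM, were also the 4 lowest in Blvrb, at 9.10 to 14.3 CPM. Alas2 and Fech, the first and last enzymes of heme synthesis, gave r = 0.72 (permutation p = 0.00705, adjusted 0.0529) and rho = 0.76 (permutation p = 0.00541, adjusted 0.0476), and r = 0.60 without the 2 libraries farthest in Alas2. No other pair passed after adjustment by either measure. The permutations ran over all 12 libraries, so differences between groups enter these p-values. After subtraction of group means, Slc25a37 and Fech had r = 0.92 against 0.35 before it, and Slc25a37 and Blvrb had r = 0.88. Alas2 and Fech fell to r = 0.63 from 0.72. The values of a pair share library, depth and scaling. TMM factors were highest, 1.29 to 1.53, in replicate 1 of unstressed F344, stressed F344 and unstressed WKY and in stressed F344 replicate 3, which are the 4 libraries lowest in Slc25a37, and the part of scaling in these correlations was not tested.

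**Figure D4:**
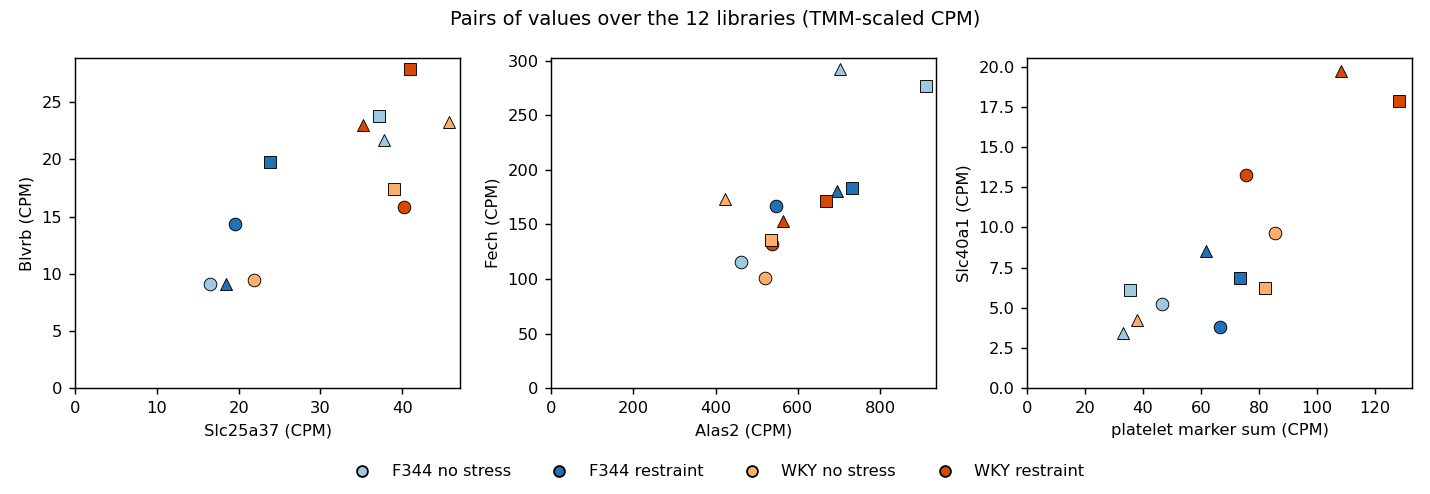
Values over the 12 libraries in TMM-scaled CPM on both axes, coloured by group, with circles, squares and triangles for replicates 1, 2 and 3. Slc25a37 and Blvrb (left) and Alas2 and Fech (middle) vary together across libraries, and the 3 stressed WKY libraries hold the highest Slc40a1 (right, 13.2 to 19.7 CPM) at platelet marker sums of 75.7 to 128 CPM.

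Among 1070 other named genes with a mean of at least 5 CPM, the patterns most like each of the 6 over 12 libraries were found by Pearson's r of log2 CPM, given as a description. They were Isca1 (r = 0.90, rho = 0.91) and Fam214b (0.90, 0.87) for Slc25a37, and Ncoa4 (r = 0.94, rho = 0.92) and Adipor1 (0.92, 0.80) for Fech. For Alas2 they were Tpt1 (r = 0.87, rho = 0.92) and Emb (0.85, 0.82), and for Blvrb Rsad2 (r = 0.89, rho = 0.94) and Cdyl (0.86, 0.94). For Slc40a1 they were Ptgs1 (r = 0.86, rho = 0.88) and Pf4 (0.85, 0.81), the second of which is in the platelet list above. Iscu had the least similar nearest genes, Tprg1l (r = 0.78, rho = 0.66) and Hbb (0.75, 0.73). After subtraction of group means, r was 0.78 for Ptgs1 and 0.62 for Pf4 with Slc40a1. It was 0.49 for Tprg1l and 0.66 for Hbb with Iscu, and 0.83 to 0.97 for all the others. The 2 pathway genes among these nearest genes, Isca1 for iron-sulfur cluster assembly and Ncoa4 for ferritin turnover, belong to the lists described next.

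Other genes of heme and iron metabolism were read from 8 lists with 67 further genes, of which 61 were in the tables and 19 passed the low count filter. None of the 19 was called by edgeR in any of the 7 comparisons, and the smallest adjusted p was 0.0846, for Pcbp2 in WKY against F344 averaged over treatments. Their median log2 fold change was 0.15 after CRS in F344 (11 of 19 positive), 0.01 in WKY (10 of 19), 0.06 between strains without stress (10 of 19) and 0.08 after CRS (10 of 19).

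In heme synthesis 2 of 7 further enzymes were tested. Urod, uroporphyrinogen decarboxylase, had means of 7.70 ± 3.61 CPM in F344 without stress and 6.29 ± 3.01 CPM after CRS, beside 8.34 ± 1.79 and 9.85 ± 4.09 CPM for WKY (SD, n = 3). Urod passed in no comparison (smallest edgeR adjusted p = 0.473). Of the mitochondrial carriers beside Slc25a37, Abcb10, a transporter that stabilises mitoferrin-1, stood at 5.15 ± 1.90 and 2.55 ± 0.897 CPM in F344 and at 4.93 ± 1.43 and 5.46 ± 2.46 CPM in WKY. After CRS it was at log2 1.08 in WKY against F344 (SE 0.437, edgeR adjusted p = 0.310), beside log2 0.91 for Slc25a37, and neither passed. Slc25a38, the glycine carrier for heme synthesis, ran from 2.11 ± 0.246 to 3.03 ± 0.395 CPM over the groups.

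In iron storage 4 of 6 listed genes were tested. Ncoa4, the receptor that delivers ferritin to lysosomes, stood at 349 ± 158 and 244 ± 10.7 CPM in F344 and at 235 ± 53.3 and 233 ± 27.4 CPM in WKY, a pattern close to that of Fech. Ftl1, the ferritin light chain, stood at 234 ± 33.6 and 259 ± 35.1 CPM in F344 and at 167 ± 58.0 and 241 ± 201 CPM in WKY. Fth1, the ferritin heavy chain, named after its values were seen, stood at 152 ± 16.4 and 251 ± 32.6 CPM in F344 and at 132 ± 47.4 and 187 ± 43.8 CPM in WKY. Averaged over strains its restraint difference was log2 0.61 (SE 0.213, edgeR adjusted p = 0.495), which did not pass. Ferritin genes have processed copies in the genome, so their counts are uncertain. Pcbp2, an iron chaperone also named after its values were seen, was at log2 -0.75 in WKY averaged over treatments (SE 0.245, edgeR adjusted p = 0.0846).

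Among the remaining roles, Blvra, the main biliverdin reductase, ran from 1.02 ± 0.971 to 3.18 ± 1.37 CPM and passed in no comparison (smallest edgeR adjusted p = 0.582). Tf, transferrin, stood at 4.44 ± 2.65 and 7.98 ± 1.38 CPM in F344 and at 9.05 ± 0.931 and 12.8 ± 7.09 CPM in WKY (log2 0.75 between strains averaged over treatments, SE 0.279, edgeR adjusted p = 0.154). Fbxl5, the iron-sensing ubiquitin ligase subunit, was at log2 0.79 in the same comparison (adjusted p = 0.158), and Bach1, a heme-sensing repressor, at log2 0.16 (adjusted p = 0.830). Smad4, which transmits the signal for hepcidin in liver, was at log2 -0.86 after CRS in WKY (SE 0.424, edgeR adjusted p = 0.859). In iron-sulfur assembly Glrx5, a glutaredoxin of that pathway, gave log2 0.30 after CRS in WKY (SE 0.298, edgeR adjusted p = 0.975) and Isca1 gave log2 0.01 (adjusted p = 0.994), beside log2 1.50 for Iscu. A difference between Iscu and these genes was not tested.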

How the data were processed

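Whole blood RNA-seq of 12 rat libraries was used. The deposited files hold whole-number read counts for 17337 genes, which the authors had not normalised. Build rn6, Cufflinks 2.2.1, cutadapt 1.14 and TopHat2 2.1.0 are listed, without roles, per the submitters' processing notes. Which counter, annotation and strandedness were used is not given in the sources used here. In each file 5 rows name no gene (80.9% to 86.6% of counts, mostly reads ambiguous between features) and were left out, so genes that overlap or have copies are uncertain.

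All 12 libraries entered 1 edgeR 4.0.16 quasi-likelihood fit (R 4.3.3) of 4 group means, with TMM scaling, filterByExpr (minimum count 10, 2781 genes kept) and Benjamini-Hochberg adjustment over those genes, at a threshold of 0.05. Each SE is the fold change divided by the root of F, and intervals are 95%. Correlations used log2 of CPM + 0.5 and 100000 permutations. The edgeR step, but not the correlations, was tested on simulated data for restraint in WKY and for the strains after CRS. Those data were drawn with the spread and library sizes fitted here and were run without the low count filter. The simulation therefore cannot check that filter or the fitted spread and scaling. Replicates differed by more than sampling noise and none was merged. Alternatives included a DESeq2 1.42.0 Wald test. The 6 genes and all lists were chosen with earlier results of these data known. Named pathway genes were the 2 most abundant tested per list and any that passed, and like-patterned genes the 2 with the highest r. One gene that this rule names is not reported here.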

Additional observations from a re-analysis of the deposited data

How the results depend on the processing

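The 6 genes gave 42 results, recomputed under up to 21 alternatives. Of these values 790 kept their direction and their side of the threshold and 73 did not, 49 of them by a change of sign, and the cause was not tested. Iscu and Slc40a1 had the fewest counts of the 6 genes (206 and 338 over all libraries). Slc40a1 changed sign in no result, and Iscu only between strains after CRS. Iscu without stress between strains could not be computed from those groups alone, where it fell below the low count filter.

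Leaving out 1 library in turn gave 0 to 5 genes called for restraint in F344, 0 to 2 in WKY and 0 to 5 averaged, 5 to 45 between strains without stress, 18 to 46 after CRS and 59 to 130 averaged, and 0 to 2 for the difference in response. Of the 6 genes, 0 to 1 was called in each strain comparison and 0 to 0 in the others. Signs changed for Blvrb (log2 -0.67 to 0.10) and Alas2 (-0.28 to 0.22) for restraint in F344 and for Slc25a37 in WKY (-0.10 to 0.36). They changed for Blvrb (-0.11 to 0.28), Alas2 (-0.0017 to 0.25) and Fech (-0.25 to 0.0283) averaged over strains, and for Slc25a37 (-0.0719 to 0.54) and Blvrb (-0.47 to 0.30) between unstressed strains.

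Scaling to counts outside the 3 most abundant features moved the median of all genes to between log2 -0.41 and 0.21. It called 2 genes for restraint in WKY, 2 averaged over strains, 12 between unstressed strains, 57 between strains averaged and 3 for the difference in response, and 0 of the 6 genes in either strain comparison where Slc40a1 had passed. After CRS 7 of 25 calls were higher in WKY, against 18 of 36 with TMM. Signs turned for Alas2 (0.10) for restraint in F344, for Slc25a37 (-0.23), Alas2 (-0.0868) and Fech (-0.23) in WKY and for Blvrb averaged (-0.0380). They also turned for Blvrb between unstressed strains (0.33), Iscu after CRS (-0.0517), and Alas2 (-0.19) and Fech (-0.0941) in the difference in response.

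Scaling to the red cell list was chosen after the data were seen. It moved the median of all genes to as low as log2 -0.17 and called 0 genes for restraint averaged over strains, 9 between unstressed strains, 14 after CRS (2 higher) and 54 averaged (21 higher, against 59 of 104 with TMM), with 0 of the 6 genes in the last 2. Signs turned for Alas2 for restraint in F344 (0.15), Blvrb between unstressed strains (0.0179), Iscu after CRS (-0.0558) and Alas2 in the difference in response (-0.0020).

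Without the low count filter 5 genes were called for restraint in F344, 8 in WKY, 6 averaged and 3 for the difference in response, and 0 of the 6 genes between strains after CRS or averaged. Signs turned for restraint in F344 for Blvrb (0.12), Alas2 (0.35) and Fech (0.0889), averaged for Slc25a37 (0.0333) and Fech (0.14), for Blvrb between unstressed strains (0.22) and for Alas2 in the difference in response (-0.0671). With no filter 19 of 22 calls between unstressed strains were higher in WKY, against 9 of 19.

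Without unstressed F344 replicates 2 and 3, which leaves 1 library assumed to vary like the other groups, 0 genes were called for restraint averaged, 5 between unstressed strains, 43 between strains averaged and 1 for the difference in response. Signs turned for restraint in F344 for Slc25a37 (0.38), Blvrb (0.71), Alas2 (0.58) and Fech (0.68), and averaged for Slc25a37 (0.27) and Fech (0.43). Between strains they turned without stress for Blvrb (0.89), Alas2 (0.14) and Fech (0.28) and averaged for Fech (0.0308). In the difference in response they turned for Slc25a37 (-0.22), Blvrb (-0.26), Alas2 (-0.30) and Fech (-0.50).

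A fit of only the groups compared called 9 genes between unstressed strains, and DESeq2 called 3 for restraint averaged and 0 of the 6 genes between strains averaged. Replicate numbers were not taken as pairs in the main fit. Of 18 same-numbered pairs, 4 had deviations correlated above 0.1 (r from -0.09 to 0.20). Differently numbered pairs gave r from -0.17 to 0.13, so these values do not settle whether the numbers pair the libraries. A fit with the replicate number as a block called 2 genes for restraint averaged and changed no call among the 6 genes (Slc40a1 after CRS log2 1.40, edgeR adjusted p = 0.0183).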

Other observations

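Of the 61 further heme and iron genes in the tables, 42 lay below the low count filter and are given as counts summed over the 3 libraries of each group. Tfrc, the transferrin receptor that brings iron into red cell precursors, had 13 and 31 counts in F344 without and with restraint and 16 and 13 in WKY. The heme synthesis enzymes Alad, Ppox and Cpox had 51, 36 and 32 counts over all 12 libraries, and Alas1, the synthase of other tissues, had 39. Hmox1, the inducible heme oxygenase, had 2, 8, 8 and 8 counts in the same order of groups. Aco1, an iron-sensing RNA-binding protein, had 11 and 19 counts in unstressed and stressed F344 and 0 and 5 in unstressed and stressed WKY, a set chosen after its values were seen. Bola3, of iron-sulfur cluster assembly, had 6 and 22 counts in F344 and 2 and 2 in WKY, also chosen after its values were seen. No test was run on these genes, and depth differed between the groups. Counts outside the 3 most abundant features were 90796 to 220499 per library in unstressed F344 and 281942 to 419789 in stressed F344. In WKY they were 170507 to 347841 without stress and 232721 to 319116 after CRS. Higher sums in stressed than in unstressed F344 therefore partly follow depth.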
